A study of Mus musculus with 12 samples.

Results

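The genes followed here build the route by which a liver cell digests its own material: the autophagy (Atg) genes, the subunits of the vacuolar proton pump (V-ATPase) and the cathepsins, proteases of the lysosome. They were measured in mice with Pml (wt) and in Pml knockout mice (KO) after acetaminophen. Members were genes with a probe set of their own whose symbol starts with Atp6v or with Atg and a digit, or consists of Cts and 1 letter, together with Lamp1, Lamp2, Sqstm1, Map1lc3a, Map1lc3b, Gabarap, Gabarapl1, Gabarapl2, Ulk1, Wipi1 and Tfeb. Their mean log2 intensity over the 12 arrays had to reach 5. Of 64 matching symbols, Ctsj (mean 4.84) and Atp6v1e2 (mean 4.99) lay just under that mean, while Atp6v1c2 (mean 5.17) and Atp6v1b1 (mean 5.24) lay just above it. The 62 members, of 17052 genes tested, comprised 12 genes of the cytosolic V1 sector of the pump, 7 of its membrane sector V0, 15 cathepsins, 9 genes of initiation and nucleation, 10 of the conjugation step, 5 of the ATG8 family, 2 LAMP genes, Sqstm1 and Tfeb. Becn1 and Ctsb were represented only by probe sets that carry several symbols and are not among the members. The rule itself used symbols and the mean over all arrays, with no difference between groups.

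Total RNA of the liver was read on Affymetrix arrays of the type Mouse Gene 1.1 ST. All animals were female BALB/cByJ mice aged 2.5 months, either wt or Pml KO. In each genotype 2 arrays came from untreated mice, 2 from mice 2 h and 2 from mice 6 h after an intraperitoneal dose of 300 mg/kg acetaminophen in warmed PBS, which gives 6 groups of 2 arrays. The sources used here do not give mice injected with PBS alone, nor which part of Pml was deleted. The labels do not state that the 2 arrays of a group came from separate animals, so the p-values measure the spread between these arrays, which may be technical.

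In macroautophagy a membrane grows around cytoplasm and closes to an autophagosome. The ULK1 complex and a lipid kinase complex start it, ATG2 and ATG9 proteins supply lipid, and a conjugation system couples ATG8 proteins such as LC3 to the membrane, where receptors such as p62 (Sqstm1) bring in cargo. The autophagosome then fuses with a lysosome, which the V-ATPase acidifies and in which cathepsins cleave proteins. In the liver the process is known for turning over mitochondria, lipid droplets and the protein adducts that acetaminophen forms.

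The 12 arrays had median intensities of 79.9 to 90.1, and arrays of a group correlated at 0.985 to 0.9934 across genes. On the first principal component 1 array stood apart from its group: KO 6 h replicate 2, at 19.77 against 39.67 to 44.83 for the other 6 h arrays. The log2 intensity of Pml was 7.82 to 8.46 on the wt arrays and 7.09 to 7.97 on the KO arrays. The highest KO value, 7.97, belonged to untreated KO replicate 2 and lay within the wt range. Without that array, 10 members passed as higher and 3 as lower in KO liver at 2 h, and 7 and 11 at 6 h. Without KO 6 h replicate 2 the counts at 6 h were 12 and 13. All 13 hepatocyte markers measured, of 17 listed, had log2 intensities between 10.20 and 13.48 on every array. In whole liver, fewer cells of a type and less RNA per cell cannot be told apart.

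Members moved in both directions after acetaminophen, and more of them passed the test at 6 h than at 2 h in wt liver. A member is called higher or lower where limma's moderated test, adjusted by Benjamini-Hochberg over all 17052 genes, gave an adjusted p under 0.05. At 2 h in wt liver 10 members were higher and 5 lower, 24.2% of the 62, where 12.7% of all tested genes were called (6.53% higher, 6.17% lower). At 6 h in wt liver 16 were higher and 18 lower (17 and 15 with quantile normalization), 54.8% against 38.4% of all genes (16.5% higher, 22% lower). In KO liver 13 were higher and 12 lower at 2 h, 40.3% against 31.4% (10.6% higher, 20.8% lower), and 10 were higher and 17 lower at 6 h, 43.5% against 34.9% (15.8% higher, 19.1% lower). The members' median log2 difference stayed near that of all genes: 0.07 against 0.02 and -0.02 against -0.05 in wt liver at 2 h and 6 h, 0.02 against -0.06 and -0.04 against -0.05 in KO liver. Both time points of a genotype share the same untreated arrays. Treated and untreated arrays did not overlap for 60.8% and 70.2% of all genes in wt liver at 2 h and 6 h. In KO liver these shares were 67.7% and 69.2%. Arrays at 2 h and 6 h did not overlap for 66.5% of all genes in wt and 64.7% in KO liver. Separate arrays are therefore given below only as a description.

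With 2 arrays a group, these counts rest heavily on single arrays. Without untreated wt replicate 1, untreated wt replicate 2, wt 2 h replicate 1 and wt 2 h replicate 2 in turn, the members called higher in wt liver at 2 h numbered 7, 5, 4 and 5, and 1 was called lower each time. In wt liver at 6 h the corresponding counts, with the 6 h arrays left out in place of the 2 h arrays, were 11, 8, 8 and 10 higher and 12, 10, 10 and 15 lower. In KO liver at 2 h they were 11, 10, 11 and 13 higher and 5, 3, 6 and 9 lower, and at 6 h 7, 7, 7 and 12 higher and 12, 11, 11 and 13 lower. With quantile normalization 16 members were higher and 8 lower in KO liver at 2 h, and the share of all called genes that were higher there moved from 33.9% to 44.7%. In what follows a call is said to hold where it also passed without each array in turn. Each of these fits left 1 group with a single array, which is assumed to vary like the other groups, since they supply the spread. Of the calls, 4 of 15 held in wt liver at 2 h, 13 of 34 in wt liver at 6 h, 10 of 25 in KO liver at 2 h and 15 of 27 in KO liver at 6 h.

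**Figure D1:**
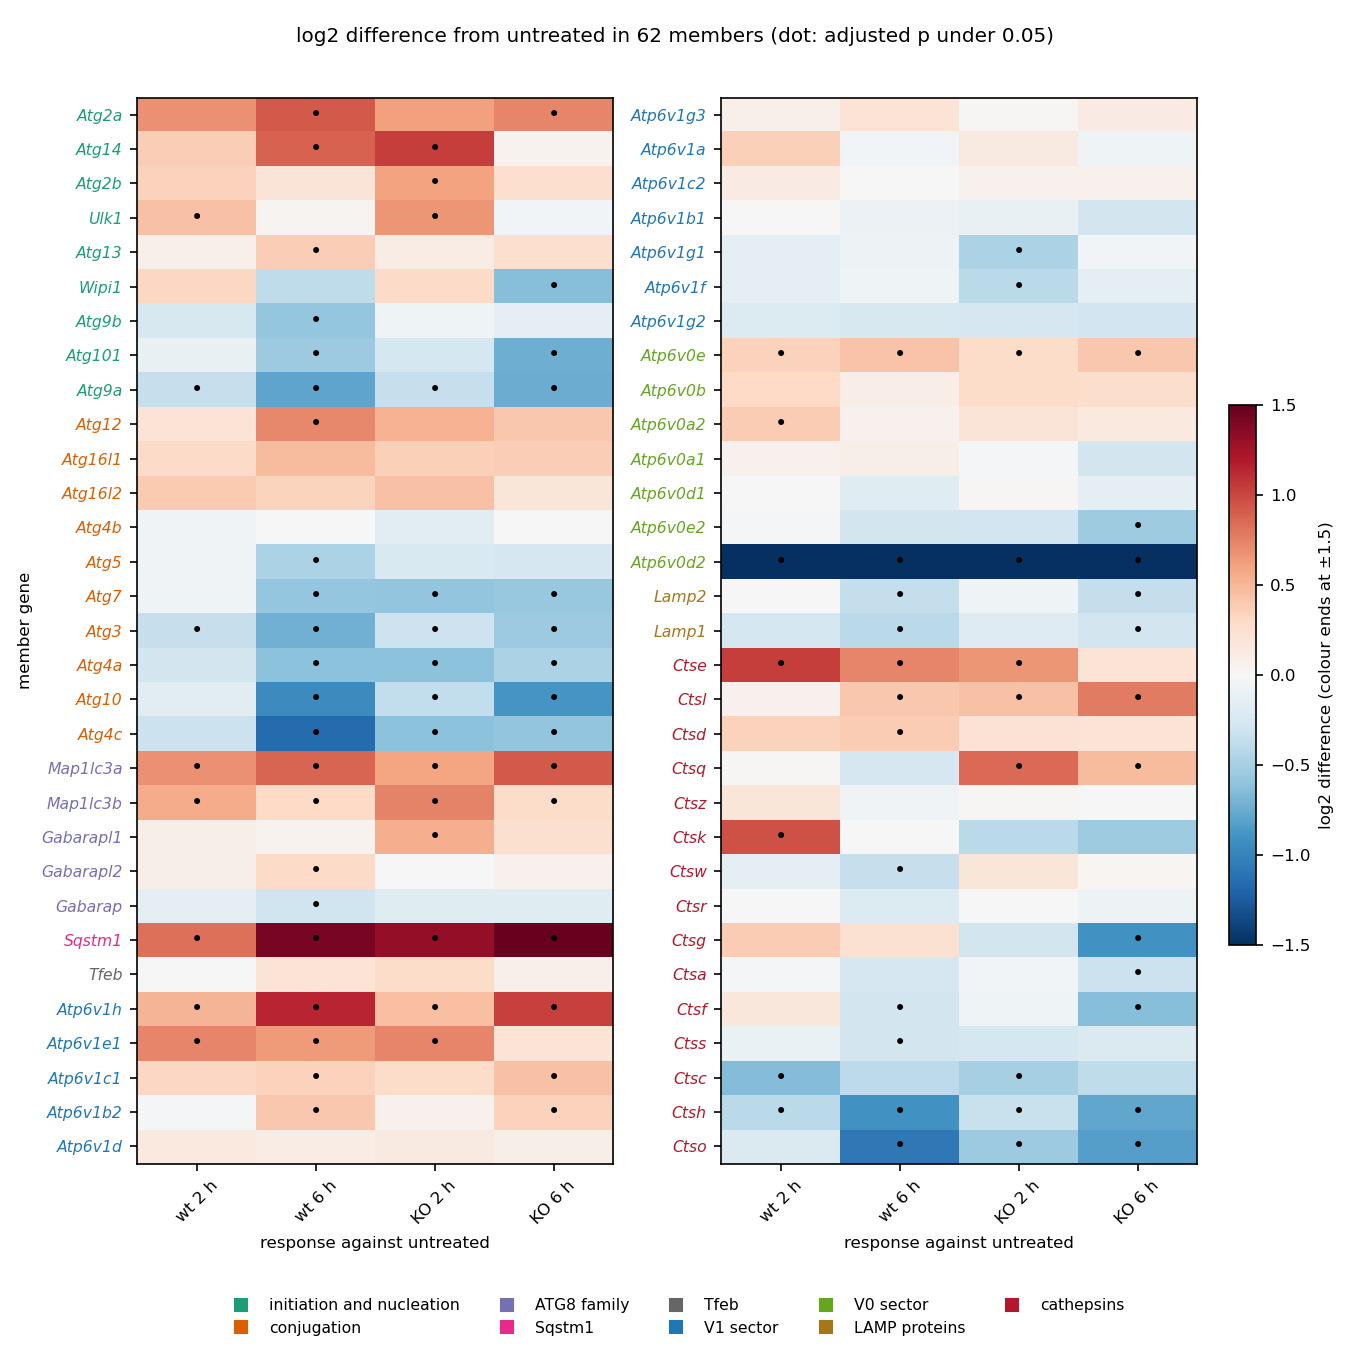
Log2 difference from untreated liver of the same genotype for the 62 members, by role, in wt and KO liver at 2 h and 6 h; the colour scale ends at 1.5 in both directions and marks show the calls. Sqstm1, Map1lc3a, Map1lc3b, Atp6v1h and Atp6v0e were called higher in all 4 columns, and Atg3, Atg9a, Atp6v0d2 and Ctsh lower in all 4. Columns of the same genotype share untreated arrays. Atp6v0d2 reached the minimum mean through its untreated arrays.

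Across the 4 responses, 5 members were called higher every time (Sqstm1, Map1lc3a, Map1lc3b, Atp6v1h and Atp6v0e) and 4 lower every time (Atg3, Atg9a, Atp6v0d2 and Ctsh), as the map of log2 differences shows. Atp6v0d2 reached the minimum mean through its untreated arrays, so its calls are no support for a fall. It is included in the counts of members lower than in untreated liver and of calls that held, also above. No member was called higher in one response and lower in another. The responses of a genotype share untreated arrays, and all 4 use the same estimate of a gene's spread. How many of all genes were called alike in all 4 responses was not counted. These patterns are therefore not read as a result about the members. 15 members passed in none of the 4, among them Tfeb, the pump subunits Atp6v1a, Atp6v1d, Atp6v0a1, Atp6v0b and Atp6v0d1, and cathepsin Z. 12 members had a mean below the lowest array median (log2 6.32): Atp6v0d2, Atp6v1b1, Atp6v1c2, Atp6v1g2, Atp6v1g3, Atg16l2, Atg9b, Ctsg, Ctsk, Ctsq, Ctsr and Ctsw.

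Sqstm1 encodes p62, the cargo receptor that binds ubiquitin and ATG8 proteins. The log2 intensities were 11.49 and 11.38 in untreated wt liver, 12.21 and 12.32 after 2 h, and 12.82 and 12.89 after 6 h. The KO arrays read 11.40 and 11.37 untreated, 12.72 and 12.69 after 2 h, and 12.95 and 12.87 after 6 h. Untreated and treated arrays did not overlap, and in each genotype both 6 h values lay above both 2 h values. Sqstm1 rose by 0.83 ± 0.09 (SE, n = 2 a group; a fold of 1.77) at 2 h and 1.42 ± 0.09 (2.67-fold) at 6 h in wt liver, with limma adjusted p of 0.000509 and 7.69e-06. In KO liver it rose by 1.32 ± 0.09 (2.5-fold) and 1.52 ± 0.09 (2.87-fold), with adjusted p of 3.74e-05 and 6.09e-06. All 4 calls held.

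**Figure D2:**
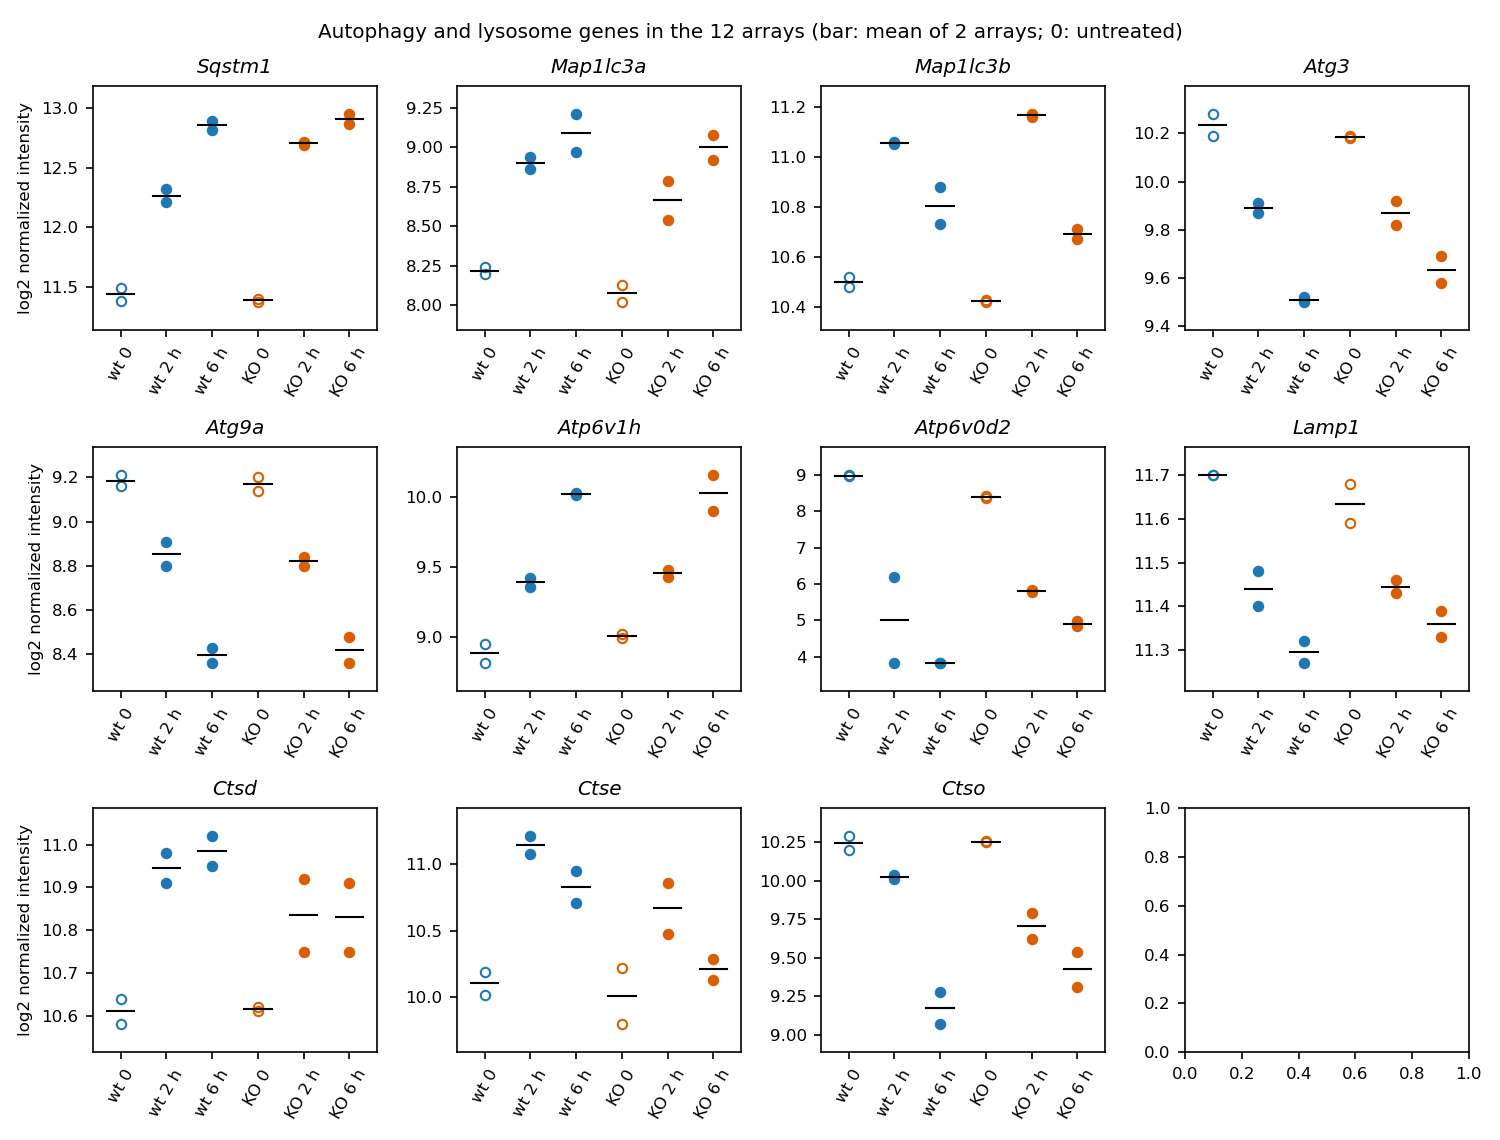
Log2 intensity on each of the 12 arrays for 11 members, with the groups along the horizontal axis and 1 point per array. The Sqstm1 values of treated liver, 12.21 to 12.95, all lie above the untreated values, 11.37 to 11.49, and Atp6v0d2 falls from 8.38 to 9.0 in untreated liver to 6.20 or less in treated liver.

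The ATG8 family comprises the LC3 and GABARAP proteins that are joined to the autophagosome membrane. Map1lc3b stood at 10.52 and 10.48 in untreated wt liver, 11.05 and 11.06 after 2 h and 10.88 and 10.73 after 6 h. In KO liver its values were 10.42 and 10.43, then 11.17 and 11.16, then 10.67 and 10.71. The 2 h arrays were the highest in both genotypes, and no treated array overlapped the untreated ones. Map1lc3b rose by 0.56 ± 0.09 at 2 h in wt liver (limma adjusted p = 0.00372) and 0.74 ± 0.09 in KO liver (adjusted p = 0.000561), and both calls held. The smaller rises at 6 h, 0.30 (adjusted p = 0.0249) and 0.27 (adjusted p = 0.0465), did not hold: the first ended without replicate 1 or 2 of untreated wt liver or wt 6 h replicate 1 (adjusted p 0.0707, 0.124 and 0.151), the second without any 1 of its 4 arrays (adjusted p 0.107 to 0.147), and also with the mean of its probe sets (0.0772).

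Map1lc3a, which encodes LC3A, rose in all 4 responses, by 0.68 and 0.87 ± 0.12 in wt liver at 2 h and 6 h and by 0.59 and 0.92 in KO liver (limma adjusted p 0.00034 to 0.00603). Untreated values ran from 8.02 to 8.24 and treated values from 8.54 to 9.21. Of these calls only that at 2 h in wt liver ended, without wt 2 h replicate 2 (adjusted p = 0.0515). Gabarapl1 rose by 0.54 ± 0.12 in KO liver at 2 h (adjusted p = 0.00749), a call that held, and differed by 0.09 in wt liver at 2 h. Its values were 11.57 and 11.62 in untreated KO liver and 12.09 and 12.19 after 2 h, against 11.85 and 11.87 and then 11.97 and 11.94 in wt liver. The KO arrays lay below the wt arrays in untreated liver and above them at 2 h. Of all genes, 35.7% and 55.4% had no overlap in these comparisons. The difference between the 2 responses did not pass the test for any ATG8 member. In wt liver at 6 h Gabarapl2 was called higher (0.29, adjusted p = 0.0293) and Gabarap lower (-0.30, adjusted p = 0.0388). The first call ended without any 1 of its 4 arrays (adjusted p 0.0703 to 0.126) and the second without replicate 1 or 2 of untreated wt liver or wt 6 h replicate 1 (adjusted p 0.16, 0.0955 and 0.202).

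Among the 9 genes of initiation and nucleation, 1 was called higher and 1 lower in wt liver at 2 h, 3 and 3 at 6 h, 3 and 1 in KO liver at 2 h, and 1 and 3 at 6 h. Of all genes 6.53%, 16.5%, 10.6% and 15.8% were higher in these responses, and 6.17%, 22%, 20.8% and 19.1% lower. The counts of these 9 genes are not read as a result about the group. Ulk1, the kinase that starts autophagosome formation, was called higher at 2 h in both genotypes and in neither at 6 h. Its values were 8.76 and 8.72 untreated, 9.18 and 9.19 after 2 h and 8.79 and 8.78 after 6 h in wt liver. In KO liver they were 8.64 and 8.63, then 9.27 and 9.31, then 8.60 and 8.58, so that the 6 h arrays lay close to the untreated ones. The rise was 0.44 ± 0.09 in wt liver (limma adjusted p = 0.0087) and 0.66 ± 0.09 in KO liver (adjusted p = 0.000675). The call in KO liver held, and that in wt liver ended without replicate 2 of untreated wt liver, wt 2 h replicate 1 or wt 2 h replicate 2 (adjusted p 0.0718, 0.0554 and 0.0579).

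Atg9a, the lipid scramblase carried on small vesicles to the growing membrane, fell in all 4 responses. Its values ran from 9.14 to 9.21 in untreated liver, 8.80 to 8.91 at 2 h and 8.36 to 8.48 at 6 h, with no overlap between the times. It fell by 0.79 ± 0.10 at 6 h in wt liver (limma adjusted p = 0.000152) and by 0.75 in KO liver (adjusted p = 0.000242), and both calls held. At 2 h it fell by 0.34 and 0.35 (adjusted p 0.0442 and 0.0188), and neither call survived the loss of any 1 of its 4 arrays (adjusted p 0.107 to 0.207 in wt and 0.0537 to 0.095 in KO liver). Atg101, a subunit of the ULK1 complex, fell by 0.54 ± 0.12 at 6 h in wt liver (adjusted p = 0.00655, or 0.056 without wt 6 h replicate 1) and by 0.73 in KO liver (adjusted p = 0.0014, a call that held).

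Atg14, which directs the lipid kinase complex to the site of autophagosome formation, varied widely between arrays. It stood at 7.76 and 8.43 in untreated wt liver, 8.47 and 8.47 after 2 h and 8.97 and 8.98 after 6 h. In KO liver it stood at 8.15 and 8.13 untreated, 9.43 and 8.93 after 2 h and 8.50 and 7.89 after 6 h. The untreated wt arrays were 0.67 apart, the largest gap of any member in that group, and the KO 6 h arrays spanned the untreated ones. Atg14 rose by 0.88 ± 0.24 at 6 h in wt liver (limma adjusted p = 0.0158) and by 1.04 ± 0.24 at 2 h in KO liver (adjusted p = 0.00939). Neither call held: the first ended without replicate 1 of untreated wt liver or either 6 h array (adjusted p 0.131, 0.0632 and 0.0605), the second without replicate 2 of untreated KO liver or KO 2 h replicate 1 (adjusted p 0.0512 and 0.0705).

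The lipid transfer protein gene Atg2a rose by 0.92 ± 0.21 in wt liver and 0.73 in KO liver at 6 h (limma adjusted p 0.00686 and 0.0229). The first call ended without wt 6 h replicate 2 (adjusted p = 0.0513). The second ended without replicate 1 or 2 of untreated KO liver or KO 6 h replicate 1 (adjusted p 0.0702, 0.104 and 0.146), and the KO 6 h arrays read 9.17 and 8.35. Its relative Atg2b rose by 0.60 ± 0.13 in KO liver at 2 h (adjusted p = 0.00587), which held. Wipi1, which binds the lipid that the kinase complex makes, differed by 0.31 and 0.29 after 2 h, under the threshold, and fell by 0.64 ± 0.16 in KO liver at 6 h (adjusted p = 0.0121), a call that ended without replicate 2 of untreated KO liver or KO 6 h replicate 2 (adjusted p 0.0726 and 0.0532). Atg13, another subunit of the ULK1 complex, was called higher in wt liver at 6 h (0.37, adjusted p = 0.0262), but not without replicate 2 of untreated wt liver or wt 6 h replicate 1 (adjusted p 0.172 and 0.135). Atg9b, a dim relative of Atg9a, was called lower there (-0.58, adjusted p = 0.0474) but not without replicate 1 of untreated wt liver, replicate 2 of untreated wt liver or wt 6 h replicate 1 (adjusted p 0.199, 0.087 and 0.304).

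Genes of the conjugation system fell more often than they rose: of 10, 6 were called lower and 1 higher in wt liver at 6 h, and 5 were lower and none higher at both times in KO liver. At 2 h in wt liver 1 was lower. Of all genes, too, more were called lower than higher in those responses: 22% against 16.5% in wt liver at 6 h, and 20.8% against 10.6% and 19.1% against 15.8% in KO liver. Their median log2 difference was -0.06 and -0.53 in wt liver at 2 h and 6 h, and -0.27 and -0.36 in KO liver. Atg4c, one of the proteases that trim ATG8 proteins, had the largest difference of these genes. Its values were 8.93 and 8.95 in untreated wt liver, 8.60 and 8.64 after 2 h and 7.56 and 8.01 after 6 h. In KO liver they were 8.89 and 8.96, then 8.24 and 8.37, then 8.17 and 8.51. All treated arrays lay below all untreated ones, and the wt arrays at 6 h were the lowest. Atg4c fell by 1.15 ± 0.15 at 6 h in wt liver (limma adjusted p = 0.000285), a call that held, and by 0.62 and 0.59 in KO liver at 2 h and 6 h (adjusted p 0.0124 and 0.014). The KO calls ended without replicate 2 of untreated KO liver (adjusted p 0.0713 at 2 h and 0.0755 at 6 h), KO 2 h replicate 1 (0.0671) or KO 6 h replicate 1 (0.114).

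Atg3 and Atg10 encode the enzymes that transfer ATG8 proteins and ATG12 to their targets. Atg3 read 10.18 to 10.28 in untreated liver, 9.82 to 9.92 at 2 h and 9.50 to 9.69 at 6 h. It was called lower in all 4 responses, by 0.72 ± 0.09 in wt liver (limma adjusted p = 0.000237) and 0.55 in KO liver (adjusted p = 0.0014) at 6 h, where the calls held. Its 2 h calls (-0.34 and -0.31, adjusted p 0.0391 and 0.0285) ended without any 1 of the 4 arrays in wt liver (adjusted p 0.0927 to 0.214) and without replicate 1 or 2 of untreated KO liver or KO 2 h replicate 2 in KO liver (adjusted p 0.0969, 0.117 and 0.124). Atg10 fell by 0.96 ± 0.12 in wt and 0.88 in KO liver at 6 h (adjusted p 0.000176 and 0.000348), and both calls held. Its fall of 0.37 in KO liver at 2 h (adjusted p = 0.0383) ended without replicate 1 or 2 of untreated KO liver or KO 2 h replicate 1 (adjusted p 0.0984, 0.159 and 0.198).

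Atg7, the activating enzyme of the system, was called lower in wt liver at 6 h (-0.58) and in KO liver at both times (-0.59 and -0.57), with limma adjusted p of 0.0127 to 0.0154. None of the 3 calls held; they ended without replicate 2 of untreated wt liver (adjusted p = 0.104) or wt 6 h replicate 1 (0.0671), without replicate 1 of untreated KO liver (0.111) or KO 2 h replicate 1 (0.109), and without replicate 1 of untreated KO liver (0.118) or KO 6 h replicate 2 (0.0726). Atg4a was called lower in the same 3 responses with differences of -0.61, -0.61 and -0.47, and these calls ended without replicate 2 of untreated wt liver (adjusted p = 0.0547), without replicate 2 of untreated KO liver (0.0781 at 2 h and 0.182 at 6 h) and without KO 6 h replicate 1 (0.13). Atg12, the ubiquitin-like protein joined to ATG5, was the gene of this group called higher, by 0.72 ± 0.20 in wt liver at 6 h (adjusted p = 0.0173). That call ended without replicate 1 or 2 of untreated wt liver or wt 6 h replicate 1 (adjusted p 0.0703, 0.0697 and 0.0872). Atg5 was called lower there (-0.48, adjusted p = 0.00896), but not without replicate 2 of untreated wt liver or wt 6 h replicate 1 (adjusted p 0.062 and 0.0594). Atg16l1, Atg16l2 and Atg4b passed in no response.

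Tfeb encodes a transcription factor known to drive lysosomal and autophagy genes, and it acts mainly through its location in the cell. Its own transcript passed in no comparison. It read 7.68 and 7.43 in untreated wt liver, 7.63 and 7.51 after 2 h and 7.73 and 7.79 after 6 h, and 7.66 and 7.39, 7.86 and 7.73, and 7.75 and 7.46 in KO liver. Treated and untreated arrays overlapped except in wt liver at 6 h and KO liver at 2 h. The differences were 0.01 and 0.20 in wt liver and 0.27 and 0.08 in KO liver, each ± 0.14 (limma adjusted p 0.16 to 0.962).

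The site that TFEB and its relatives are known to bind, called the CLEAR element, contains the E-box CACGTG. Promoter windows from RefSeq on GRCm38.p6, 250 bases before to 50 bases after the start, were matched by symbol for 50 of the 62 members, 5 of them with more than 1 start. CACGTG lay in the windows of 13 members (26%), of 10.1% of the 13417 tested genes with a window and of 8.09% of all 27025 genes. TCACGTGA, a strict form of the CLEAR element, lay in those of 6 members (12%), of 1.62% of the tested genes and of 1.12% of all genes. Both are their own reverse complement, so 1 search covers both strands, and every TCACGTGA match is also a CACGTG match. TGACNNNGC, the antioxidant response element, lay on either strand in the windows of 8 members (16%), against 15.9% of tested genes and 14% of all. TGATGNAA, the ATF4 composite element, lay in those of 3 members (6%), against 3.32% and 4.51%. The heat shock element lay in no member's window, against 0.559% and 0.662%. A match is a description of letters, not of a bound site. TFEB is known for driving lysosomal and autophagy genes, the kinds that the rule selected by name. The larger shares of CACGTG and TCACGTGA among the members are therefore not read as a result. The motifs, and the promoters printed, were chosen after the results above were known. All 6 stretches with TCACGTGA are shown because it is the form TFEB is known for, Lamp1 because it carried 4 E-boxes, and Sqstm1 because it rose in every response and had no match to any of the 5 motifs. Each is written 5′ to 3′ on the gene's strand, with matches to TCACGTGA or CACGTG in capitals. The stretches lie at chr16:45158717-45158784 (+), chr8:105566061-105566108 (-), chr17:26676358-26676405 (+), chr16:44139364-44139431 (-), chr2:164833720-164833784 (+), chr7:142387899-142387966 (-), chr8:13159090-13159160 (+) and chr11:50210821-50211070 (-), in the order printed.
Atg3: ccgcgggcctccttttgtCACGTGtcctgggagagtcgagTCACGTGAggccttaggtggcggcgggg
Atp6v0d1: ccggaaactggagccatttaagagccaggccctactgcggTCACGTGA
Atp6v0e: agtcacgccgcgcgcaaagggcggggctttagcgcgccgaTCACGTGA
Atp6v1a: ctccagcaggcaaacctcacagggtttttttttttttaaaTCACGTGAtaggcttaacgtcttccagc
Ctsa: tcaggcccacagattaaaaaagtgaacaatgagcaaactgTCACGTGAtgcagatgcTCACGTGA
Ctsd: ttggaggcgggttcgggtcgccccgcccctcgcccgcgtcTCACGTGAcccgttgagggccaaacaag
Lamp1: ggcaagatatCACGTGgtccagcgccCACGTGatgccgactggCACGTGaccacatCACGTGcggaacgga
Sqstm1: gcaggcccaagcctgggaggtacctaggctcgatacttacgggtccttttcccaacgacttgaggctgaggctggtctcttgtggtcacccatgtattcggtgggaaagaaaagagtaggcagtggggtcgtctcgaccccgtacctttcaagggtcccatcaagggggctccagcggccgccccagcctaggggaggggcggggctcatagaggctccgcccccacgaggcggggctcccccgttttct
The 6 genes with TCACGTGA did not share a direction. Atp6v0e was called higher and Atg3 lower in all 4 responses, Ctsd was called higher in wt liver at 6 h, Ctsa lower in KO liver at 6 h, and Atp6v0d1 and Atp6v1a passed in none.

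The V1 sector holds the ATP-hydrolysing head and the stalks of the pump. Of its 12 members, 2 were called higher in wt liver at 2 h, 4 at 6 h, 2 in KO liver at 2 h (with 2 lower) and 3 at 6 h. Of all genes 6.53%, 16.5%, 10.6% and 15.8% were higher in these responses, and 20.8% were lower in KO liver at 2 h. Counts this small are not read as a result about the sector. The medians of the 12 lay between 0.05 and 0.10, close to 0. Atp6v1h, the subunit that bridges the sectors and stops hydrolysis when they part, had the largest rise. It read 8.95 and 8.81 in untreated wt liver, 9.36 and 9.42 after 2 h and 10.03 and 10.02 after 6 h. On the KO arrays it was 9.02 and 8.99, then 9.43 and 9.48, then 10.16 and 9.90. The 3 times did not overlap in either genotype. Atp6v1h rose by 1.14 ± 0.11 (2.21-fold) in wt liver and 1.02 ± 0.11 (2.03-fold) in KO liver at 6 h (limma adjusted p 4.62e-05 and 9.46e-05), and both calls held. The rises at 2 h, 0.51 and 0.45 (adjusted p 0.0133 and 0.011), ended without replicate 2 of untreated wt liver or either wt 2 h array (adjusted p 0.112, 0.0652 and 0.0846) and without replicate 2 of untreated KO liver (0.0657).

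**Figure D3:**
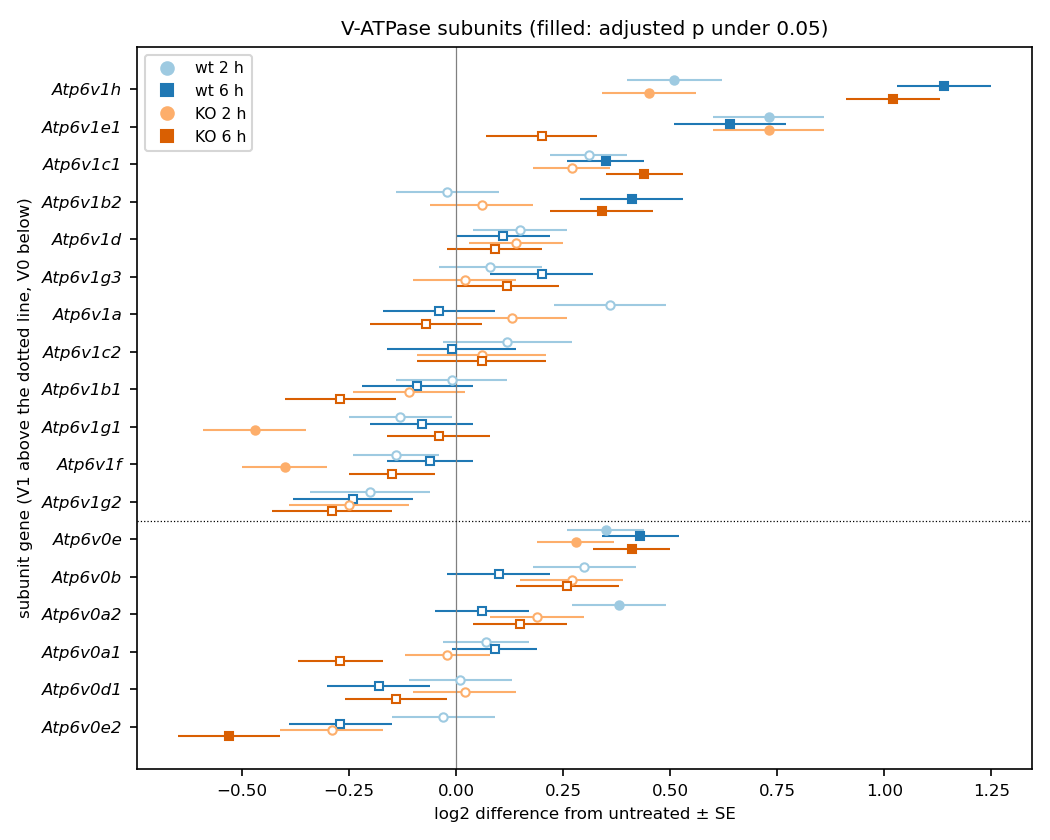
Log2 difference from untreated liver, with its standard error, for 18 of the 19 V-ATPase members in wt and KO liver at 2 h and 6 h; Atp6v0d2, whose differences reach -5.16, lies outside the scale. Atp6v1h stands at 1.14 and 1.02 after 6 h, and most other subunits stay within 0.5 of 0.

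Atp6v1e1, a subunit of the stalks, rose early. It read 9.46 and 9.35 in untreated wt liver, 10.18 and 10.09 after 2 h and 10.10 and 10.00 after 6 h, and 9.41 and 9.42, 9.95 and 10.34, and 9.68 and 9.55 in KO liver. It rose by 0.73 ± 0.13 at 2 h in both genotypes (limma adjusted p 0.00552 in wt and 0.00271 in KO liver) and by 0.64 at 6 h in wt liver (adjusted p = 0.00324), and differed by 0.20 in KO liver at 6 h (adjusted p = 0.263). The 2 h call in wt liver ended without replicate 2 of untreated wt liver or wt 2 h replicate 1 (adjusted p 0.0534 and 0.0528), and the other calls held. Atp6v1c1, also of the stalks, rose by 0.35 and 0.44 ± 0.09 at 6 h (adjusted p 0.0127 and 0.00465); the call in KO liver held, and that in wt liver ended without replicate 2 of untreated wt liver or wt 6 h replicate 2 (adjusted p 0.0711 and 0.0635). The head subunit Atp6v1b2 was called higher at 6 h (0.41 and 0.34), but not without any 1 of the 4 arrays in wt liver (adjusted p 0.052 to 0.107), nor without replicate 1 or 2 of untreated KO liver or KO 6 h replicate 1 in KO liver (0.185, 0.113 and 0.268). Atp6v1f and Atp6v1g1 were called lower in KO liver at 2 h (-0.40 and -0.47, adjusted p 0.0116 and 0.0126). The first call ended without replicate 1 or 2 of untreated KO liver or KO 2 h replicate 1 (adjusted p 0.0555, 0.0603 and 0.0772) and the second without replicate 2 of untreated KO liver (0.113). The isoforms Atp6v1b1, Atp6v1c2, Atp6v1g2 and Atp6v1g3 were all dim and passed in no response.

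In the V0 sector, which carries protons through the membrane, Atp6v0e was the one subunit that rose in all 4 responses. It read 10.15 to 10.20 in untreated liver, 10.44 to 10.56 at 2 h and 10.59 to 10.62 at 6 h, with no overlap. The rises were 0.35 and 0.43 ± 0.09 in wt liver and 0.28 and 0.41 in KO liver (limma adjusted p 0.00327 to 0.0341). Both 6 h calls held, while both 2 h calls ended without any 1 of their 4 arrays (adjusted p 0.087 to 0.15 in wt and 0.0626 to 0.131 in KO liver). Atp6v0a2, a subunit of the proton channel, was called higher in wt liver at 2 h (0.38, adjusted p = 0.0415). That call ended without any 1 of its 4 arrays (adjusted p 0.0649 to 0.259) and with the mean of its probe sets (0.097). Atp6v0e2, a relative of Atp6v0e, fell by 0.53 ± 0.12 in KO liver at 6 h (adjusted p = 0.00618, or 0.052 without KO 6 h replicate 1).

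Atp6v0d2, an isoform of the d subunit known from osteoclasts and macrophages, fell further than any other member. It read 8.98 and 9.0 in untreated wt liver, 6.20 and 3.82 after 2 h and 3.83 and 3.82 after 6 h. The KO arrays gave 8.42 and 8.38, then 5.77 and 5.83, then 4.84 and 4.98. Treated and untreated arrays were far apart, and the 2 wt arrays at 2 h differed by 2.38, the largest gap of any member there. The group means were 8.99, 5.01 and 3.83 in wt liver and 8.40, 5.80 and 4.91 in KO liver. Atp6v0d2 was called lower in all 4 responses, also with no filter on the mean (limma adjusted p 9.13e-05 to 0.0062), but it reached the minimum mean through its untreated arrays, and 3 of the 4 wt arrays after treatment lay near 3.82, far under the array medians. Its values are therefore given as a description with no fold; without single arrays the difference in wt liver at 2 h ran from -5.17 to -2.79. The other d subunit, Atp6v0d1, differed by -0.18 to 0.02 and passed in no response. The summed intensity of 17 Kupffer cell and macrophage markers was 10800 to 11000 in untreated wt liver, 8190 to 8940 at 2 h and 7260 to 8440 at 6 h, and 10400 to 12100, 7870 to 9540 and 8840 to 9890 in KO liver. The part of these cells in the fall of Atp6v0d2 was not tested.

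Both LAMP genes, which encode the most abundant glycoproteins of the lysosomal membrane, were called lower at 6 h in both genotypes. Lamp1 read 11.70 and 11.70 in untreated wt liver, 11.40 and 11.48 after 2 h and 11.27 and 11.32 after 6 h, and 11.68 and 11.59, 11.43 and 11.46, and 11.39 and 11.33 in KO liver. No treated array overlapped an untreated one. Lamp1 fell by 0.41 ± 0.09 at 6 h in wt liver (limma adjusted p = 0.00543), which held, and by 0.28 in KO liver (adjusted p = 0.0378), which ended without any 1 of its 4 arrays (adjusted p 0.0781 to 0.183). Lamp2 fell by 0.36 ± 0.10 in each genotype at 6 h (adjusted p 0.0146 and 0.0181). Its wt call ended without replicate 1 or 2 of untreated wt liver or wt 6 h replicate 1 (adjusted p 0.0731, 0.0576 and 0.0696) and its KO call without replicate 1 of untreated KO liver or either KO 6 h array (0.107, 0.0619 and 0.0635).

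Of the 15 cathepsins, 2 were called higher and 2 lower in wt liver at 2 h, 3 and 5 at 6 h, 3 and 3 in KO liver at 2 h, and 2 and 5 at 6 h. Of all genes 16.5% were higher and 22% lower in wt liver at 6 h, and 15.8% and 19.1% in KO liver, so the cathepsin counts are not read as a result about the group. Cathepsin H, an aminopeptidase, fell in all 4 responses. It read 11.31 to 11.53 in untreated liver, 10.96 to 11.16 at 2 h and 10.58 to 10.65 at 6 h. The fall at 6 h was 0.91 ± 0.10 in wt liver and 0.78 in KO liver (limma adjusted p 0.000102 and 0.000267), and both calls held. At 2 h Ctsh fell by 0.40 and 0.33 (adjusted p 0.0267 and 0.031). These calls ended without any 1 of the 4 arrays in wt liver (adjusted p 0.0997 to 0.134) and without replicate 1 or 2 of untreated KO liver or KO 2 h replicate 1 in KO liver (0.0535, 0.186 and 0.17).

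Cathepsin O, a less studied cysteine protease, read 10.20 and 10.29 in untreated wt liver, 10.01 and 10.04 after 2 h and 9.28 and 9.07 after 6 h. The KO values were 10.25 and 10.26, then 9.62 and 9.79, then 9.31 and 9.54. Every treated array lay below every untreated one. Ctso fell by 1.07 ± 0.12 (2.1-fold) in wt liver at 6 h and by 0.55 and 0.83 in KO liver at 2 h and 6 h (limma adjusted p 9.27e-05, 0.00604 and 0.00045), and all 3 calls held.

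Cathepsin F read 8.36 and 8.30 in untreated wt liver, 8.52 and 8.47 after 2 h and 8.01 and 8.10 after 6 h, and 8.35 and 8.24, 8.18 and 8.26, and 7.62 and 7.69 in KO liver. In both genotypes the 6 h arrays were the lowest. Ctsf fell by 0.64 ± 0.09 in KO liver at 6 h (limma adjusted p = 0.000576), which held. Its fall of 0.28 in wt liver (adjusted p = 0.0408) ended without any 1 of the 4 arrays (adjusted p 0.0635 to 0.175). Ctsa, the carboxypeptidase that protects lysosomal sialidase, was called lower in KO liver at 6 h (-0.32, adjusted p = 0.0245), but not without any 1 of the 4 arrays (0.0614 to 0.0983).

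Cathepsins L, D and E were called higher. Cathepsin L rose by 0.40 ± 0.10 in wt liver at 6 h and by 0.44 and 0.78 in KO liver at 2 h and 6 h (limma adjusted p 0.00911, 0.00765 and 0.000242). The last of these calls held, and the others ended without wt 6 h replicate 1 (adjusted p = 0.0567) and without replicate 1 of untreated KO liver (0.0638). Cathepsin D, the main aspartic protease of the lysosome, read 10.58 and 10.64 in untreated wt liver, 10.91 and 10.98 after 2 h and 10.95 and 11.02 after 6 h, and 10.61 and 10.62, 10.75 and 10.92, and 10.91 and 10.75 in KO liver. All treated arrays lay above all untreated ones, but in each response 60.8% to 70.2% of all genes had arrays that did not overlap. Only the difference in wt liver at 6 h passed (0.38 ± 0.10, limma adjusted p = 0.0147). That call ended without replicate 1 or 2 of untreated wt liver or wt 6 h replicate 2 (adjusted p 0.0791, 0.0516 and 0.07).

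Cathepsin E, an aspartic protease of endosomes and of erythrocyte membranes, read 10.19 and 10.02 in untreated wt liver, 11.21 and 11.08 after 2 h and 10.95 and 10.71 after 6 h. In KO liver it read 9.80 and 10.22, then 10.48 and 10.86, then 10.29 and 10.13. In wt liver all treated arrays were above the untreated ones, and in KO liver the 6 h arrays overlapped them. Ctse rose by 1.04 ± 0.17 at 2 h in wt liver (limma adjusted p = 0.00345), which held, by 0.73 at 6 h (adjusted p = 0.00692) and by 0.66 in KO liver at 2 h (adjusted p = 0.0148). The latter calls ended without replicate 2 of untreated wt liver or wt 6 h replicate 1 (adjusted p 0.0572 and 0.0551) and without replicate 1 of untreated KO liver or KO 2 h replicate 2 (0.113 and 0.0982). The summed intensity of the 5 erythroid markers measured, of 12, was 901 to 919 in untreated wt liver, 1250 to 1560 at 2 h and 1440 to 2270 at 6 h, and 771 to 1250, 816 to 976 and 651 to 716 in KO liver. Their part in the values of Ctse was not tested.

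Several cathepsins are known mainly from immune cells. Cathepsin K, prominent in osteoclasts and macrophages, read 5.87 and 6.43 in untreated wt liver, 7.27 and 6.94 after 2 h and 6.07 and 6.22 after 6 h, and 6.02 and 6.37, 5.57 and 5.99, and 5.70 and 5.63 in KO liver. Only the wt arrays at 2 h lay above their untreated arrays. Ctsk rose there by 0.95 ± 0.21 (limma adjusted p = 0.0149), a call that ended without replicate 1 of untreated wt liver or wt 2 h replicate 1 (adjusted p 0.0998 and 0.124). Cathepsin C, which activates granule proteases, fell at 2 h by 0.65 ± 0.16 in wt liver and 0.50 in KO liver (adjusted p 0.024 and 0.0353), and neither call held. The wt call ended without any 1 of its 4 arrays (adjusted p 0.0549 to 0.162) and the KO call without replicate 1 or 2 of untreated KO liver or KO 2 h replicate 2 (0.171, 0.0704 and 0.234). Ctss of antigen-presenting cells and Ctsw of cytotoxic lymphocytes were called lower in wt liver at 6 h (-0.28 and -0.34, adjusted p 0.0485 and 0.0467). The call of Ctss ended without any 1 of its 4 arrays (0.118 to 0.152), and that of Ctsw without replicate 1 of untreated wt liver or either 6 h array (0.288, 0.209 and 0.0641). Cathepsin G of neutrophil granules was called lower in KO liver at 6 h (-0.91 ± 0.31, adjusted p = 0.0466), but not without replicate 1 or 2 of untreated KO liver or KO 6 h replicate 1 (0.085, 0.202 and 0.309).

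Markers of immune cells moved over the same groups. Of the 17 Kupffer cell and macrophage markers measured, of 18, 5 were lower in wt liver at 2 h, 10 at 6 h, 6 in KO liver at 2 h and 9 at 6 h. Of all genes 6.17%, 22%, 20.8% and 19.1% were lower in these responses. In the same order 1, 1, 1 and 2 of the markers were higher. Cd68, a lysosomal protein of these cells, was higher at 6 h in both genotypes. The counts of lower markers were at their smallest 0 without replicate 2 of untreated wt liver or wt 2 h replicate 2, 6 without replicate 2 of untreated wt liver or wt 6 h replicate 1, 3 without replicate 1 of untreated KO liver, and 2 without replicate 1 of untreated KO liver or KO 6 h replicate 1. The summed intensity of 16 neutrophil markers was 805 to 831 in untreated wt liver, 944 to 962 at 2 h and 2810 to 5310 at 6 h, and 776 to 838, 782 to 1330 and 829 to 1040 in KO liver. In wt liver at 6 h 11 of the 16 were higher and 1 lower, where 16.5% of all genes were higher and 22% lower. None of the 16 passed in KO liver. The neutrophil protease gene Ctsg read 5.81 and 5.43 in wt liver at 6 h, within reach of its untreated values of 5.54 and 5.23. The sum of 15 lymphocyte and NK cell markers was 983 to 1040 in untreated wt liver. At 2 h it was 1030 to 1120 and at 6 h 890 to 909. In KO liver it was 974 to 1010, 840 to 900 and 817 to 868 in the same order. The part of these cells in the values of Ctsk, Ctsc, Ctss, Ctsw and Ctsg was not tested. Cathepsin Q, which belongs to a placental family, was dim but rose in KO liver by 0.85 ± 0.10 at 2 h (limma adjusted p = 0.000512) and 0.48 at 6 h (adjusted p = 0.00475), and both calls held. It read 5.06 and 5.04 in untreated KO liver and 5.47 and 5.51 in untreated wt liver, and 5.87 and 5.92 in KO liver at 2 h.

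Between 2 h and 6 h, members fell more often than they rose. In wt liver 4 were higher and 16 lower at 6 h than at 2 h, 32.3% of members against 27.7% of all genes (10.9% higher, 16.8% lower). In KO liver 3 were higher and 13 lower, 25.8% against 31.7% (19.1% higher, 12.6% lower). The counts of called members were 10 without wt 2 h replicate 1 and 11 without any other 1 of the wt arrays at those times, and 9 when KO 2 h replicate 2 was left out and 8 when KO 6 h replicate 2 was. Calls that held were those of Atg10, Atg4c, Ctsf, Ctsh, Ctso and Ulk1 (lower) and Atp6v1h and Sqstm1 (higher) in wt liver, and Ctsf, Map1lc3b, Ulk1 and Wipi1 (lower) and Atp6v1h (higher) in KO liver. Sqstm1 rose by a further 0.59 in wt liver and differed by 0.20 in KO liver over these hours.

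**Figure D4:**
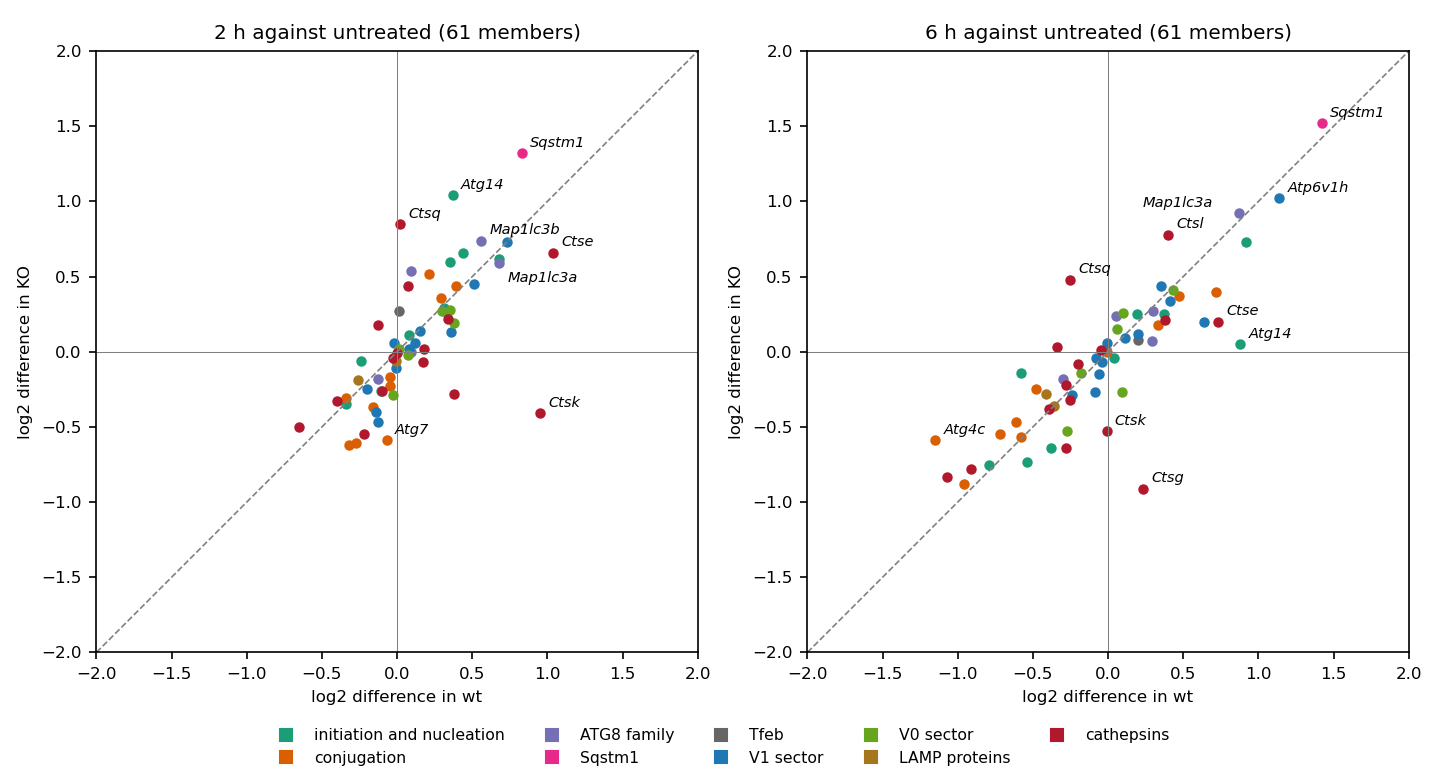
Log2 difference from untreated liver in wt (horizontal) and KO (vertical) at 2 h and 6 h, 1 point per member and coloured by role; 61 members are drawn, and Atp6v0d2 lies outside the axes. Points follow the dashed line of equal response, with Ctsk at 0.95 and -0.41 at 2 h among those away from it.

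The wt and KO responses were largely alike in direction. They share no arrays, but the fit used the same estimate of a gene's spread for both, so their calls are not independent. At 2 h 13 members were called in both genotypes, 86.7% of the 15 called in wt and 52% of the 25 called in KO liver. For all genes these shares were 74.3% and 30.1%. At 6 h 22 were called in both, 64.7% of 34 and 81.5% of 27, against 62.8% and 69.1% for all genes. Each member called in both genotypes moved the same way in both. So did 1602 of the 1609 genes called in both at 2 h and 4081 of 4113 at 6 h. Across the 62 members the correlation of the 2 responses was 0.82 at 2 h and 0.91 at 6 h, and across all genes 0.78 and 0.80. The values of the members include Atp6v0d2, whose differences lie far outside those of the other members. They are therefore not read as closer agreement than that of all genes. Genes are not independent replicates.

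Untreated wt and KO liver differed in no member by limma's test, and 2 members had an unadjusted p under 0.05; of all genes 0.00586% were called. At 2 h Sqstm1 was called higher and Ctsk lower in KO than in wt liver, 3.23% of members against 2.01% of all genes (0.411% higher, 1.6% lower). Sqstm1 was higher by 0.44 ± 0.09 (limma adjusted p = 0.0473). The KO and wt arrays at that time did not overlap for 55.4% of all genes. For Sqstm1 all KO arrays lay above all wt arrays. The call ended without any 1 of those 4 arrays (adjusted p 0.0618 to 0.199). Ctsk was lower by 1.32 ± 0.21 (adjusted p = 0.0213), a call that ended without wt 2 h replicate 1 or 2 or KO 2 h replicate 1 (adjusted p 0.12, 0.0864 and 0.114). Without KO 2 h replicate 2 the calls were Ctsk, Atg7 and Ctsc, and without wt 2 h replicate 1 Atp6v0d2 was called higher in KO liver, against the 1 wt array left, at 3.82.

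At 6 h Ctse and Ctsf were called lower in KO than in wt liver, again 3.23% of members, where 9.02% of all genes were called (4.09% higher, 4.93% lower). Ctse was lower by 0.62 ± 0.17 (limma adjusted p = 0.0491) and Ctsf by 0.40 ± 0.09 (adjusted p = 0.0303). Neither call survived the loss of any 1 of the 4 arrays (adjusted p 0.0579 to 0.273 for Ctse and 0.0792 to 0.117 for Ctsf). Without wt 6 h replicate 1 or KO 6 h replicate 2 no member was called, without wt 6 h replicate 2 the 1 called was Atg4c, and without KO 6 h replicate 1 there were 5: Atg101, Atg12, Atg14, Atg2a and Atg4c. With quantile normalization 6 were called, Ctse and Ctsf with Atg4c, Atp6v1c2, Atp6v1e1 and Ctsq. With the fit on the 2 groups alone the 1 called was Atp6v0d2, higher in KO liver, where both wt arrays lay near 3.82.

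Averaged over the 3 conditions, 1 member was higher and 1 lower in KO liver, 3.23% against 1.78% of all genes (0.328% higher, 1.45% lower). The higher one was the pump subunit isoform Atp6v1c2, which read 5.13 and 4.71, 5.11 and 4.97, and 4.99 and 4.84 in wt liver, and 5.41 and 5.27, 5.29 and 5.51, and 5.44 and 5.37 in KO liver, untreated, at 2 h and at 6 h. All KO arrays lay above all wt arrays. The difference was 0.42 ± 0.08 (limma adjusted p = 0.0387, or 0.0441 with no filter) for a dim probe set. Its wt group means were 4.92, 5.04 and 4.91 and its KO group means 5.34, 5.40 and 5.40, so that it reached the minimum mean of 5 through the KO arrays and its call is no support for a difference between genotypes. The lower one was Ctsk (-0.59 ± 0.12, adjusted p = 0.0419). Each of these calls ended without any 1 of 10 of the 12 arrays, the exceptions being replicate 1 of untreated wt liver and KO 2 h replicate 2, with adjusted p up to 0.11 for Atp6v1c2 and 0.12 for Ctsk. Without KO 2 h replicate 2 there were 5 calls, with Ctsc, Ctse and Ctsg added, and without wt 2 h replicate 1 the 1 call was Atp6v0d2.

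The difference between the KO and wt responses passed for no member at either time by limma's test, with 6 members at an unadjusted p under 0.05 at 2 h and 9 at 6 h; of all genes 0.0293% were called at 2 h (0.0117% higher, 0.0176% lower) and 0.487% at 6 h (0.088% higher, 0.399% lower). For Sqstm1 at 2 h the KO response exceeded the wt response by 0.49 ± 0.13 (adjusted p = 0.198), and for Ctsk it was lower by 1.37 ± 0.29 (adjusted p = 0.157). For Atp6v0d2 no size is given, since wt arrays lay at the low end of the scale, and the difference of its responses passed at neither time (adjusted p 0.404 and 0.306). It was called after 2 h without wt 2 h replicate 1, which left 1 wt array, at 3.82, and after 6 h with the fit on the 4 groups compared.

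Genes of the same pathways that are not members were counted over lists of known genes. Of 38 lysosomal hydrolases other than cathepsins measured, 18 were lower and 4 higher in wt liver at 6 h, 20 and 2 in KO liver at 2 h and 22 and 4 at 6 h, but 3 and 2 in wt liver at 2 h. In the same order 22%, 20.8%, 19.1% and 6.17% of all genes were lower, and 16.5%, 10.6%, 15.8% and 6.53% higher. The medians of the hydrolases were -0.07 and -0.35 in wt liver and -0.34 and -0.37 in KO liver. Those of all genes were 0.02 and -0.05 in wt liver and -0.06 and -0.05 in KO liver. Gm2a, the activator protein for ganglioside breakdown, fell by 1.09 ± 0.12 in wt and 1.22 ± 0.12 in KO liver at 6 h (limma adjusted p 7.68e-05 and 5e-05). Without single arrays 13 to 18 hydrolases were lower in wt liver at 6 h, 12 to 19 in KO liver at 2 h (12 without replicate 2 of untreated KO liver, 13 without KO 2 h replicate 1) and 14 to 19 at 6 h (14 without replicate 2 of untreated KO liver or KO 6 h replicate 1). The 5 higher or lower in wt liver at 2 h were down to 1 or none without any 1 of the 4 arrays. Sinusoidal endothelial markers, whose cells are also rich in lysosomal enzymes, summed to 9770 to 9920 in untreated and 8050 to 9240 in wt liver at 6 h, and 9600 to 10100 and 6850 to 7850 in KO liver. Their part and that of Kupffer cells in the hydrolase counts was not tested.

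The next counts, at 6 h, stand beside 16.5% of all genes higher and 22% lower in wt liver, and 15.8% and 19.1% in KO liver. Between KO and wt liver at 6 h, 4.09% of all genes were higher and 4.93% lower in KO. These counts are not read as results about the lists. Of 39 other autophagy genes, 9 were higher and 12 lower in wt liver and 8 and 11 in KO liver at 6 h. Ulk2, the sister kinase of Ulk1, fell by 1.27 ± 0.11 and 1.30 ± 0.11 (limma adjusted p 2.36e-05 and 2.48e-05), and Wipi2, the relative of Wipi1 that recruits the conjugation enzymes, rose by 0.87 and 0.75. Without replicate 2 of untreated wt liver the higher count in wt liver was 5, and without KO 6 h replicate 1 that in KO liver was 5. Of 44 genes of mTORC1 and TFEB control, 11 were higher and 10 lower in wt liver (8 and 9 without replicate 1 of untreated wt liver, 9 and 10 without wt 6 h replicate 2) and 12 and 13 in KO liver at 6 h; without KO 6 h replicate 1 the latter were 7 and 9, and without replicate 2 of untreated KO liver they were 9 and 8. Without replicate 1 of untreated KO liver they were 8 and 10. Tfe3, a relative of Tfeb that binds the same element, rose by 1.21 ± 0.11 and 1.27 ± 0.11 (adjusted p 4.39e-05 and 3.7e-05), and Deptor, an inhibitor of mTOR, fell by 1.55 and 1.42 (adjusted p 8.11e-06 and 1.49e-05). Of 35 lysosomal membrane and transport proteins, 4 were higher and 16 lower in wt liver and 6 and 10 in KO liver at 6 h, and 10 were lower in wt liver without replicate 2 of untreated wt liver or wt 6 h replicate 1. At that time 7 were higher in KO than in wt liver, but none without wt 6 h replicate 1 or KO 6 h replicate 2. Of 15 other V-ATPase subunits and accessory proteins, 1 was higher and 3 lower in wt liver and 2 and 6 in KO liver at 6 h; without replicate 1 or 2 of untreated KO liver or KO 6 h replicate 1, 2 were lower. Tcirg1, a further isoform of the channel subunit, fell by 0.96 ± 0.15 and 0.88 ± 0.15 in KO liver at 2 h and 6 h. No gene of this list was called between KO and wt liver, nor in the difference of their responses. Of 11 cathepsin inhibitors 4 were lower in each genotype at 6 h, among them Serpinb1a (-0.98 and -0.92 ± 0.16), and 2 in KO liver without replicate 1 of untreated KO liver or KO 6 h replicate 1.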

How the data were processed

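Liver RNA of 12 arrays was analysed as the table of linear intensity values deposited by the authors, 35556 probe sets, made by RMA in Affymetrix Expression Console per the submitters' processing notes; versions are not given in the sources used here. Log2 was taken with no value added. Genes were named from probe sets with 1 symbol, by the probe set of highest mean, and kept at a mean log2 of at least 5. Ctsb and Becn1 have only probe sets with several symbols and were left out; 6 members had more than 1 probe set. limma 3.58.1 (R 4.3.3) was fitted to 6 group means, with 6 residual and 4.33 prior degrees of freedom, two-sided moderated tests and Benjamini-Hochberg adjustment over 17052 genes within each comparison.

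The 62 members, the pathway and marker lists and the tests were chosen with earlier results of these data known. All members are covered by counts; values on every array were given for Sqstm1, Tfeb, Map1lc3b, Ctsd, Lamp1, members called with an absolute log2 difference of at least 1 in a response, and members called between genotypes; up to 4 further members of a role with the smallest p in a comparison were named, and up to 4 genes of a pathway list. Atg9b, Atg12 and Ctsg, also named, were chosen after their values were seen, as were some full values of other members. Arrays of the same number did not deviate together: over 15 pairs of groups the correlation was -0.13 to 0.18, over 0.1 in 4, so numbers were not used to pair arrays. Alternatives were no filter, a mean of at least 7, quantile normalization, 16 added before log2, the mean of probe sets, a variance trend, the compared groups only, a replicate block and each array left out. List counts without each array and with quantile normalization were added after seeing the data. Array number limits precision.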

Additional observations from a re-analysis of the deposited data

How the results depend on the processing

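No called difference of a member changed sign. At 6 h in wt liver, where 18 members were lower and 16 higher, more were higher than lower in 5 settings: 16 and 15 with the replicate block, 17 and 15 with quantile normalization, 16 and 15 with no filter, 17 and 16 at a mean of at least 7, and 14 and 13 with the compared groups only; with 16 added there were 17 of each. With the fit on the compared groups alone, 3 members were lower in wt liver at 2 h, 4 lower in KO liver at 2 h, 0 and 1 differed between genotypes at 2 h and 6 h, 1 in the difference of responses at 6 h, and 8 between KO times. Between genotypes at 2 h, 1 was called with no filter and 1 at a mean of at least 7; at 6 h 1 with no filter, 4 at a mean of at least 7 and 6 with quantile normalization; for the mean of 3 conditions 1 at a mean of at least 7 and 1 with quantile normalization. Leaving out single arrays gave 4 to 7 members higher and 1 lower in wt liver at 2 h, 8 to 11 and 10 to 15 at 6 h, 10 to 13 and 3 to 9 in KO liver at 2 h, and 7 to 12 and 11 to 13 at 6 h. Between genotypes it gave 0 to 3 at 2 h, 0 to 5 at 6 h and 0 to 5 for the mean, in the difference of responses 0 to 1 at 2 h, and between times 10 to 11 in wt and 8 to 16 in KO liver.

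With replicate number as a block, 10 members were higher and 5 lower in wt liver at 2 h, 16 and 15 at 6 h, 13 and 12 in KO liver at 2 h, and 8 and 17 at 6 h. Between genotypes 0, 2, 2 and 2 were called (untreated, 2 h, 6 h, mean), in the differences of responses 0 and 0, and between times 21 and 15. The block moved no count by over 1.5 times; at 6 h between genotypes it called Atg4c and Ctsf in place of Ctse and Ctsf.

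With 2 arrays a group, most calls rest on single arrays, and differences of about 0.3 on the log2 scale are near the limit. For the 12 members below the lowest array median, signal over background limits what can be measured.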

Other observations

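The members' median gap between the 2 arrays was 0.06 to 0.13 on the log2 scale over the 6 groups, against 0.12 to 0.16 for all tested genes. Gaps over 0.5 were found for 2 members in untreated wt liver, 1 in wt liver at 2 h, 4 in KO liver at 2 h and 5 in KO liver at 6 h, and for none in wt liver at 6 h and untreated KO liver. Of all genes 3.49%, 2.08%, 6.95% and 6.64% had such gaps in the former 4 groups, shares near those of the members. In wt liver at 6 h and untreated KO liver, where no member had such a gap, 5.39% and 3.33% of all genes had them. The widest gaps of members were those of Atp6v0d2 in wt liver at 2 h (2.38), Ctsg in KO liver at 2 h (0.93) and Atg2a in KO liver at 6 h (0.83).

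Of 20 selective autophagy receptors other than Sqstm1, 5 were called higher and 2 lower in wt liver at 2 h and 6 and 2 in KO liver. At 6 h 3 and 8 were called in wt and 5 and 4 in KO liver. Of all genes 6.53% were higher and 6.17% lower in wt liver at 2 h, and 10.6% and 20.8% in KO liver. At 6 h the shares were 16.5% and 22% in wt and 15.8% and 19.1% in KO liver. Bnip3, a receptor for mitochondria, rose at 2 h by 0.84 and 0.90 ± 0.13, and Retreg1, a receptor for the endoplasmic reticulum, rose at 6 h by 1.46 and 1.33 ± 0.19 (limma adjusted p 0.00298, 0.00119, 0.000229 and 0.000467). Pink1, the kinase that marks damaged mitochondria, fell by 0.83 ± 0.10 in each genotype at 6 h. The 2 h counts in wt liver were 1 higher and 0 lower without replicate 2 of untreated wt liver or wt 2 h replicate 1, 2 higher without wt 2 h replicate 2 and 3 higher without replicate 1 of untreated wt liver. At 6 h 5 were lower in wt liver without wt 6 h replicate 1. In KO liver at 6 h the counts turned to 5 higher and 7 lower with quantile normalization, 2 and 4 without replicate 2 of untreated KO liver and 3 and 4 without KO 6 h replicate 1. The 2 lower in KO liver at 2 h were 0 without replicate 1 or 2 of untreated KO liver or KO 2 h replicate 1.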
